A study of Mus musculus with 64 samples.

Results

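Of the 46785 genes in the deposited transcript tables, 35 that mark the cells of brain blood vessels were examined. They were chosen by gene symbol, with earlier results of these data known, from genes known for their expression in endothelial cells (27 genes) and in mural cells (8 genes, of which 5 are linked to pericytes and 3 to smooth muscle). Whole tissue from the nucleus accumbens (NAc) and the prefrontal cortex (PFCx) of adult male C57BL/6N mice was sequenced as total RNA depleted of ribosomal RNA, 2 h after 1 intraperitoneal injection. The drugs were the antipsychotics haloperidol (1 mg/kg) and risperidone (0.5 mg/kg), the antidepressants mianserin (20 mg/kg) and venlafaxine (16 mg/kg), the stimulant methamphetamine (2 mg/kg) and the dissociative anaesthetic ketamine (20 mg/kg). Saline was the vehicle, acidified with a little hydrochloric acid for haloperidol and risperidone, and was injected alone in control mice. Each drug had 4 libraries per tissue, and saline had 8 per tissue in 2 sets of 4, labelled I and II. The labels do not tie the drugs to these sets, but the NAc tables do: the haloperidol, risperidone, methamphetamine and saline set I libraries list 85287 to 87827 transcripts above 0, and the mianserin, venlafaxine, ketamine and saline set II libraries 107099 to 110556. The same division was used for the PFCx, where the numbers of transcripts (108556 to 110852) do not separate the sets.

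Endothelial cells line brain capillaries and form the blood-brain barrier: tight junctions seal the gaps between them, and transporters in their membranes carry glucose, lactate, lipids and amino acids into the brain or pump foreign compounds, many drugs among them, back to the blood. Mural cells wrap the endothelium, as pericytes on capillaries and as contractile smooth muscle cells on arteries and veins. Vascular cells are a small share of brain tissue, so their transcripts are diluted in RNA of whole tissue.

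Expression is given in FPKM, a measure of read density scaled to transcript length and to the size of the library, summed over the transcripts of a gene. All 35 members were above 0 in all 64 libraries, so each was detected in both tissues. In the NAc after saline, 9 members had a mean of at least 5 FPKM, 18 were between 1 and 5 FPKM and 8 were under 1 FPKM, with a median of 2.05 FPKM. In the PFCx the numbers were 10, 19 and 6, with a median of 2.49 FPKM. Bsg (basigin, a partner protein of lactate transporters that many other brain cells also make) was highest, at 64.6 ± 15.6 FPKM in NAc and 65.0 ± 17.5 FPKM in PFCx libraries (SD, n = 8 each). Slc2a1 (the glucose transporter GLUT1) came next in the NAc at 10.7 ± 1.72 FPKM, and Egfl7, a secreted endothelial protein, in the PFCx at 10.4 ± 1.22 FPKM.

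Levels of the remaining defining members were lower. Cldn5, the main claudin of the blood-brain barrier, stood at 6.03 ± 0.73 FPKM in the NAc and 5.44 ± 1.23 FPKM in the PFCx. The endothelial adhesion protein gene Pecam1 had 3.03 ± 0.74 and 2.85 ± 0.28 FPKM, and Flt1, a receptor for vascular endothelial growth factor, 3.90 ± 0.39 and 4.36 ± 0.41 FPKM. Abcb1a, which codes for the efflux pump P-glycoprotein, had 1.71 ± 0.25 and 1.96 ± 0.25 FPKM. Among pericyte genes, Vtn (vitronectin) had 9.27 ± 1.96 and 7.86 ± 1.89 FPKM, and Pdgfrb, the receptor through which endothelium recruits pericytes, 2.16 ± 0.37 and 1.81 ± 0.32 FPKM. The smooth muscle gene Myh11 was the lowest member in the NAc at 0.317 ± 0.035 FPKM, and the transcription factor gene Sox18 the lowest in the PFCx at 0.510 ± 0.165 FPKM (SD, n = 8 for all).

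Depth ran from 1.52 to 3.26 gigabases of aligned sequence per library, estimated from the coverage in the tables. Known markers of striatal neurons summed to between 374.8 and 511.9 FPKM in the NAc saline libraries and to between 26.4 and 78.8 FPKM in the PFCx saline libraries, so the tissues stood where their labels put them. PFCx saline set II replicate 4 was the library at 78.8 FPKM, and it also had the lowest mean level over the 35 members in the PFCx. PFCx risperidone replicate 3 stood at 65.0 FPKM for the striatal markers and had the highest member mean, against a median of 29.3 FPKM over the PFCx libraries. Results that changed when either of these 2 libraries was left out are given with and without it. The labels do not say whether libraries came from separate mice, so p-values measure only the spread between these samples, which may be technical.

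Expression after drug treatment turned mainly on 1 member, Slc2a1, whose promoter is shown here with those of Slc16a1 and Eng, the other members that rose against all 8 saline libraries of a tissue and have an entry among the RefSeq promoter windows. Each sequence is the 250 bases before the RefSeq transcription start (GRCm38.p6, plus strand), 5′ to 3′, and capitals mark ACGTG on either strand, the core letters bound by hypoxia-inducible factors and by some basic helix-loop-helix proteins. The windows lie at chr4:119108495-119108744 for Slc2a1, chr3:104638414-104638663 for Slc16a1 and chr2:32646345-32646594 for Eng.
Slc2a1: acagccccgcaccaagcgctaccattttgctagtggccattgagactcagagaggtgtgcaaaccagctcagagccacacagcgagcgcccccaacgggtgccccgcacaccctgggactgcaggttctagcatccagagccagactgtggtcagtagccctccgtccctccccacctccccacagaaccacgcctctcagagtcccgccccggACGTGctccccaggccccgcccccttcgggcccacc
Slc16a1: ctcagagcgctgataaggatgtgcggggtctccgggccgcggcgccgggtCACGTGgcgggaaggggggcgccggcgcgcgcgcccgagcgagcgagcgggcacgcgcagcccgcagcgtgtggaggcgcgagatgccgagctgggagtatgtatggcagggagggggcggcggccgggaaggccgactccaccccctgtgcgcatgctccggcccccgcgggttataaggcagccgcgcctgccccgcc
Eng: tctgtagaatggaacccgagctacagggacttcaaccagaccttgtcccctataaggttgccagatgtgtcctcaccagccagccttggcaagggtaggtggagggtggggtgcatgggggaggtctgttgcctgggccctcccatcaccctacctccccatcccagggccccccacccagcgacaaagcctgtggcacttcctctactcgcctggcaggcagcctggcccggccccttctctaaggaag
The Slc2a1 window held 1 match, 36 bases before the start. The Slc16a1 window held overlapping matches on both strands, 200 and 199 bases before the start, and the Eng window held none. ACGTG, searched on both strands of windows from 250 bases before to 50 bases after each start, was found in 19.6% of all 32851 windows and in 4 of the 23 members with a window (Mfsd2a, Pglyrp1, Slc16a1 and Slc2a1); this motif was chosen after the values were seen. The letters CAGGAAG, a core of sites for ETS factors, were found in 6 of the 23 members and in 13.3% of all windows. The 23 members had 30 windows, so for both motifs the count of members and the share of windows are not in the same unit. The CArG box of smooth muscle genes, in 1.63% of all windows, and the palindromic glucocorticoid response element, in 0.0487%, were in none of the 23 members. A match is a description of these letters and shows no binding.

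The tissue comparison asked whether vascular genes were expressed alike in the NAc and the PFCx of mice given saline. Of the 35 members, 3 were higher in the NAc and 8 lower, while 24 did not pass the test. The 8 that were lower included all 3 called mural genes, the smooth muscle genes Myh11 and Acta2 and the pericyte gene Rgs5, and the largest difference on the log2(FPKM + 1) scale was that of the efflux pump gene Abcg2, which was 0.573-fold of its PFCx level. The members were no more often called than genes in general: 11 of 35, against 33.9% of the 37034 genes tested (limma on log2(FPKM + 1), Benjamini-Hochberg adjusted p under 0.05). That share depended on the sample set, at 35.3% with saline set I alone and 20.8% with set II alone. NAc libraries of set I listed fewer transcripts above 0 than those of set II. The part of this gap in the share of all genes was not tested. The median difference, NAc minus PFCx, was -0.04 on the log2 scale for the members and -0.10 for all genes, with 7.16% of genes higher in the NAc and 26.8% lower. In bulk tissue, fewer vascular cells and less RNA per vascular cell cannot be told apart.

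Among barrier transporters, Abcg2, which pumps many drugs out of the endothelium, ranged from 2.38 FPKM over a median of 3.08 to 4.67 FPKM in the NAc and from 4.05 over 5.77 to 7.31 FPKM in the PFCx. Of the 8 NAc libraries, 7 lay below every PFCx library. The difference was -0.66 ± 0.11 (SE; adjusted p = 0.000236). Slco1a4, an organic anion transporter of the barrier, ranged from 4.64 over 5.71 to 6.86 FPKM in the NAc and from 5.94 over 6.90 to 8.23 FPKM in the PFCx, with groups that overlapped and a difference of -0.23 ± 0.07 (adjusted p = 0.0177). Slc2a1 differed the other way, from 8.11 over 10.7 to 13.3 FPKM in the NAc against 6.70 over 8.73 to 9.78 FPKM in the PFCx. Its groups overlapped and its difference was 0.31 ± 0.09 (adjusted p = 0.0187).

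Of the 7 receptor and signalling genes, 2 were lower in the NAc and none was higher. Tek, the receptor tyrosine kinase TIE2 that binds angiopoietins, ran from 0.967 over 1.17 to 1.51 FPKM in the NAc and from 1.52 over 1.71 to 2.00 FPKM in the PFCx. The 2 tissues did not overlap, and the difference was -0.31 ± 0.06 (adjusted p = 0.000589). Kdr, the main signalling receptor for vascular endothelial growth factor, had 0.806 ± 0.126 FPKM in the NAc and 1.07 ± 0.147 FPKM in the PFCx, a difference of -0.20 ± 0.05 (adjusted p = 0.0105).

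The 5 surface and secreted proteins went both ways. Vwf (von Willebrand factor, a clotting protein stored in endothelium) had 2.02 ± 0.51 FPKM in the NAc and 2.91 ± 0.61 FPKM in the PFCx, a difference of -0.37 ± 0.11 (adjusted p = 0.016). Itm2a, a membrane protein abundant in brain endothelium, was higher in the NAc at 6.32 ± 0.77 against 5.15 ± 0.65 FPKM, a difference of 0.25 ± 0.07 (adjusted p = 0.0171). Ly6c1, a surface protein of endothelial and some blood cells, was higher too, at 7.75 ± 1.30 against 5.98 ± 1.25 FPKM (0.33 ± 0.11, adjusted p = 0.0343). That call was lost when any of 10 of the 16 libraries was left out, and without PFCx saline set II replicate 4 the members divided into 2 higher and 10 lower. Reads of Ly6c1 can also come from its near-identical neighbour Ly6c2, so its level is uncertain. None of the 5 junction and adhesion genes (Cldn5, Pecam1, Cdh5, Esam and Emcn) and none of the 3 transcription factor genes (Sox17, Sox18 and Erg) passed the test.

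Mural genes that passed the test were all lower in the NAc. Lower calls were also the more common ones among all genes tested, with 26.8% lower and 7.16% higher. The direction is therefore not particular to mural genes. After the rescaling of libraries described below, Rgs5 no longer passed and the pericyte gene Pdgfrb was called higher in the NAc. Myh11, the myosin heavy chain of smooth muscle, ran from 0.276 over 0.313 to 0.384 FPKM in the NAc and from 0.394 over 0.627 to 0.786 FPKM in the PFCx, without overlap. Its mean in the NAc was 0.511-fold of that in the PFCx, a difference of -0.29 ± 0.05 (adjusted p = 0.000647). Acta2, smooth muscle actin, ran from 0.354 over 0.726 to 1.09 FPKM against 0.919 over 1.11 to 1.71 FPKM, an overlapping difference of -0.34 ± 0.08 (adjusted p = 0.00612). The third smooth muscle gene, Tagln, had 0.961 ± 0.174 and 0.969 ± 0.364 FPKM and was not called. Rgs5, a regulator of G-protein signalling typical of pericytes, had 6.96 ± 0.77 FPKM in the NAc and 8.40 ± 0.85 FPKM in the PFCx, a difference of -0.24 ± 0.07 (adjusted p = 0.0112).

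Markers of perivascular and meningeal fibroblasts, cells that lie on vessels and on the brain surface, were also mostly lower in the NAc. Of 10 such markers, 9 were lower in the NAc and all 10 were detected, with sums of 4.39 to 9.70 FPKM in the NAc and 10.5 to 18.1 FPKM in the PFCx saline libraries and a median difference of -0.48. Over all genes the median difference was -0.10, and 26.8% were called lower in the NAc. Their part in the difference of Myh11 and Acta2 was not tested. Red blood cell markers overlapped between the tissues, at 40.2 to 101.7 FPKM in the NAc and 38.2 to 127.0 FPKM in the PFCx.

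**Figure D1:**
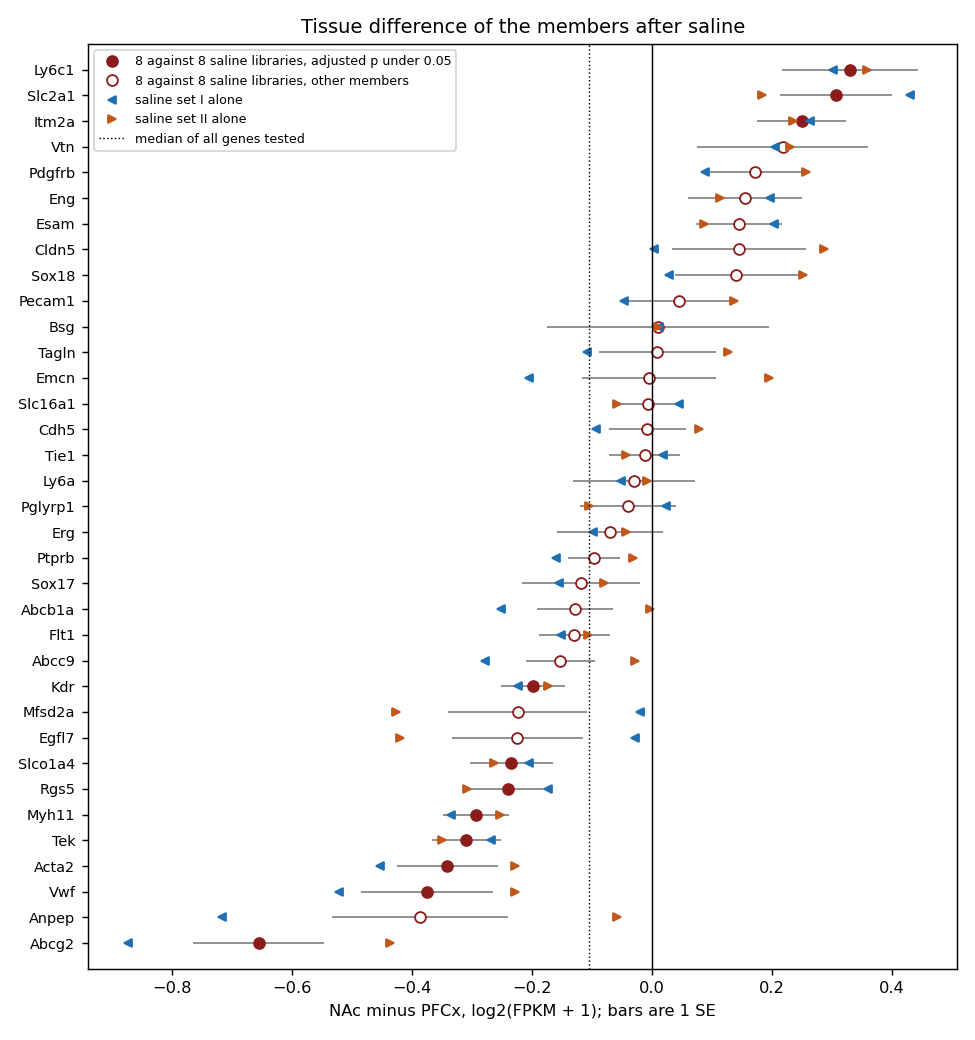
Difference between NAc and PFCx after saline for each of the 35 members on the log2(FPKM + 1) scale (x axis), with 1 SE as bars. Filled circles are the 11 members past the adjusted p threshold, open circles the other 24, triangles the difference within saline set I (pointing left) and set II (pointing right) alone, and the dotted line is the median of all genes tested, -0.10; 3 filled members lie to the right of 0 and 8 to the left.

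The 2 saline sets were also compared between tissues separately. In set I, 10 members passed (2 higher in the NAc, 8 lower, 35.3% of all genes) and in set II 6 (1 higher, 5 lower, 20.8% of all genes). Of the members called over both sets, Tek and Abcg2 were called in each set alone, with differences of -0.27 and -0.35 for Tek and of -0.87 and -0.44 for Abcg2. When libraries were rescaled to their 75th percentile, the split moved to 5 higher and 6 lower (29.5% of all genes): Slco1a4 and Rgs5 no longer passed, Esam and Pdgfrb were called higher in the NAc, and the members' median difference was 0.01 beside -0.08 for all genes. The direction of each of the 11 members was the same under this scaling.

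The drug groups provided the same comparison in libraries that the saline test did not use. Members called numbered 9 after haloperidol (1 higher in the NAc, 8 lower, 38.3% of genes), 16 after risperidone (all lower, 40.3%) and 9 after methamphetamine (2 higher, 7 lower, 38.4%). In the other sample set they numbered 4 after mianserin (2 higher, 2 lower, 15.1%), 7 after venlafaxine (1 higher, 6 lower, 14.4%) and 3 after ketamine (2 higher, 1 lower, 13.2%). Haloperidol, risperidone and methamphetamine belong to sample set I, whose NAc libraries listed 85287 to 87827 transcripts above 0, against 107099 to 110556 in set II. The part of this gap in the shares of all genes was not tested. Over the 6 drug groups these were 48 calls, and 46 without PFCx risperidone replicate 3. Abcg2, Acta2 and Myh11 were lower in the NAc in 6 of 6 drug groups and called in 4 of them each. Itm2a was higher in the NAc in 6 of 6 and called in 5, and Tek lower in 6 of 6 and called in 2. Slc2a1 and Ly6c1 were higher in the NAc in 6 of 6, with 1 call and 0 calls.

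Against saline, most calls among the vascular genes were of Slc2a1. Of 420 combinations of member, drug and tissue, 12 passed the test against the 8 saline libraries of the tissue, and 8 against the 4 saline libraries of the drug's own sample set. Of all genes, 0.0054% to 1.97% were called per drug and tissue against the 8 saline libraries, so most genes of any kind had no call. Slc2a1 accounted for 7 of the 12 calls and 5 of the 8. The other calls were rises of Eng after ketamine in the NAc and of Esam and Slc16a1 after mianserin in the PFCx, and falls of Slco1a4 after risperidone and Bsg after venlafaxine in the NAc. For 28 of the 35 members, no call was made with either control, including all 8 mural genes. The members' median difference lay between -0.11 after risperidone in the NAc (7 of 35 members above saline; all genes -0.05) and 0.07 after risperidone in the PFCx (25 of 35 above; all genes 0.00). The 6 drugs of a tissue share saline libraries, so their comparisons are not independent.

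Against the 4 saline libraries of the same sample set, members called in the NAc numbered 1 after haloperidol, 3 after ketamine and 0 after the other 4 drugs by limma, of which risperidone had 8 members at an unadjusted p under 0.05 (6.54% of all genes), mianserin 5 (7.81%), methamphetamine 4 (6.25%) and venlafaxine 1 (5.71%). The shares of all genes called in these NAc tests were 0.235% for haloperidol, 0.213% for risperidone, 0.0891% for methamphetamine, 0.273% for mianserin, 0.0081% for venlafaxine and 0.967% for ketamine. In the PFCx the members numbered 1 after risperidone, 2 after mianserin, 1 after ketamine and 0 after the other 3 by limma, of which haloperidol and venlafaxine had 6 members each at an unadjusted p under 0.05 (5.95% and 9.45% of all genes) and methamphetamine 3 (5.99%). The shares of all genes were 0.0216% for haloperidol, 0.162% for risperidone, 0.159% for methamphetamine, 2.01% for mianserin, 0.74% for venlafaxine and 1.51% for ketamine.

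**Figure D2:**
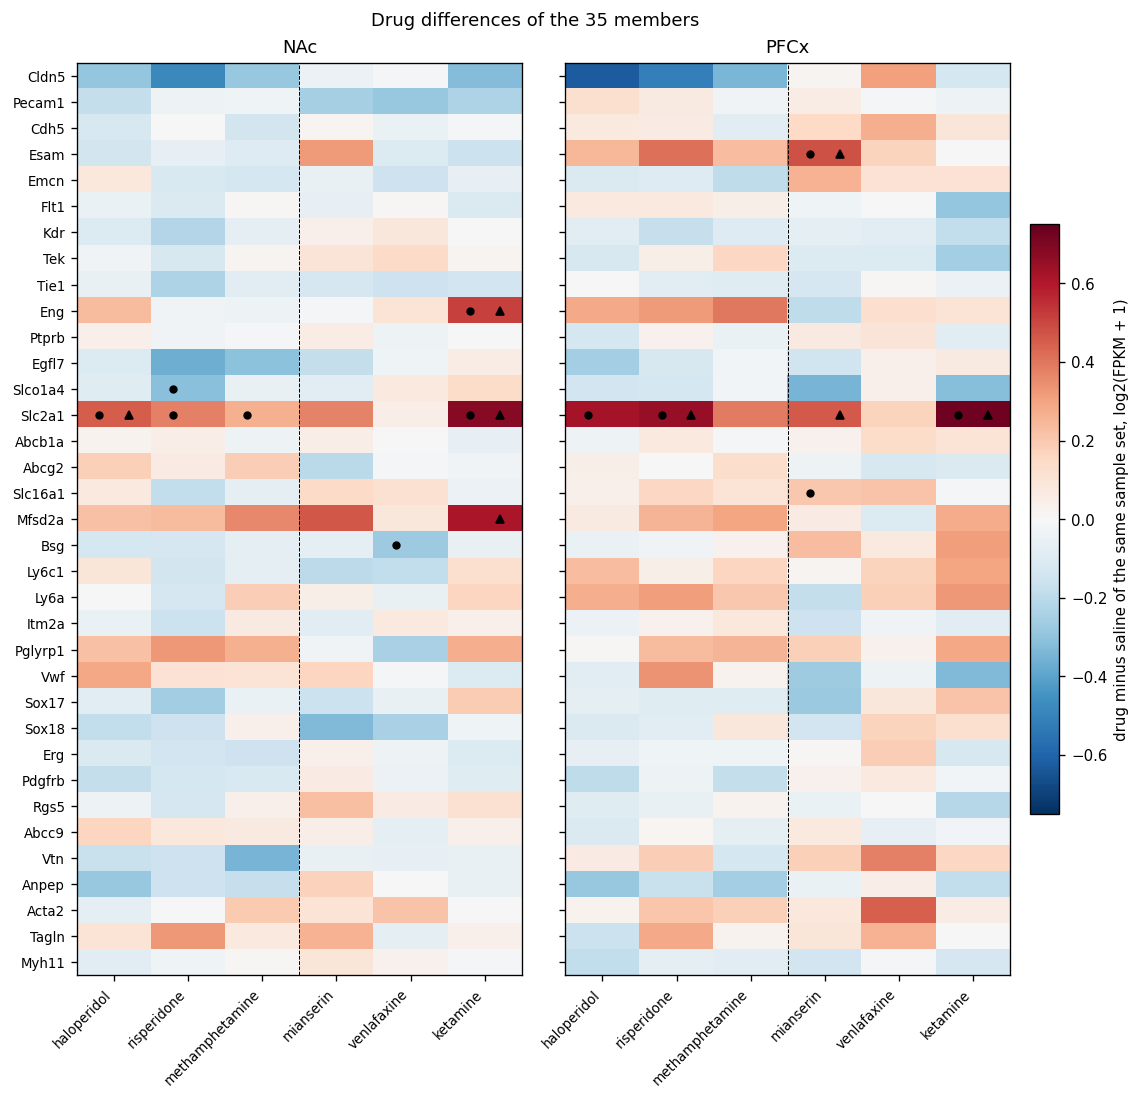
Heat map of drug minus saline differences on the log2(FPKM + 1) scale, each drug against the 4 saline libraries that share its sample set, for the 35 members (vertical axis) in 12 combinations of drug and tissue (horizontal axis). A dot marks a call against all 8 saline libraries (12 in all) and a triangle a call against the drug's own set (8 in all); Slc2a1 is above saline in 12 of 12 columns.

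Slc2a1 (chr4:119108711-119137983, plus strand, mm10) codes for GLUT1, which moves glucose across the blood-brain barrier and is made by endothelium and, at lower levels, by astrocytes. Its expression rose in both tissues after haloperidol, risperidone and ketamine and in the NAc after methamphetamine, by 1.38-fold to 1.71-fold over the saline mean. After mianserin in the PFCx it rose against saline set II but did not pass against all 8 saline libraries, and venlafaxine gave no call in either tissue.

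In the NAc, Slc2a1 of saline set I read 12.3, 11.4, 11.2 and 13.3 FPKM. Haloperidol libraries of the same sample set read 16.7, 17.6, 16.7 and 16.5 FPKM, and risperidone libraries 16.8, 16.5, 14.2 and 16.4 FPKM. All 8 lay above every saline library of the tissue. For haloperidol the difference from 8 saline libraries was 0.63 ± 0.09 (SE; 1.58-fold; adjusted p = 0.000302; 0.721% of all genes called and 1 of 35 members), and it was 0.45 ± 0.09 against saline set I alone (adjusted p = 0.0133). Risperidone gave 0.55 ± 0.09 (1.498-fold; adjusted p = 0.00174; 0.729% of genes called and 2 of 35 members), and 0.38 ± 0.09 against set I alone, which did not pass (adjusted p = 0.0618).

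Methamphetamine libraries of the NAc read 16.03, 14.9, 13.9 and 13.9 FPKM, each above every saline library. Their difference of 0.44 ± 0.09 (1.38-fold; adjusted p = 0.039) was the only member call for this drug in the NAc, where 0.194% of genes were called. It was lost against set I alone (0.27 ± 0.09, adjusted p = 0.508) and when any methamphetamine library or any set II saline library was left out, with adjusted p up to 0.194.

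Saline set II read lower than set I in the NAc, at 9.18, 9.60, 8.11 and 10.1 FPKM. Ketamine libraries of the same sample set read 13.5, 15.8, 16.8 and 15.9 FPKM, again above all 8 saline libraries. The difference was 0.51 ± 0.09 (1.45-fold; adjusted p = 0.00576; 1.97% of genes called and 2 of 35 members) and 0.68 ± 0.09 against set II alone (1.67-fold; adjusted p = 1.07e-05). Mianserin libraries read 13.2, 13.99, 10.7 and 11.4 FPKM, above all set II saline libraries but overlapping set I. Of these, 13.99 FPKM lay above and 10.7 FPKM below the range of set I. The group was not called against all saline (0.20 ± 0.09, adjusted p = 0.22) or against set II (0.37 ± 0.09, adjusted p = 0.0618). Venlafaxine libraries read 9.48, 11.1, 8.06 and 9.97 FPKM and overlapped set II saline, with -0.12 ± 0.09 against all saline (adjusted p = 0.454) and 0.05 ± 0.09 against set II (adjusted p = 0.995).

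In the PFCx the 2 saline sets lay closer together for Slc2a1, at 8.97, 8.26, 8.69 and 8.77 FPKM in set I and 9.78, 8.95, 6.70 and 6.96 FPKM in set II. Haloperidol libraries read 15.5, 15.4, 13.0 and 12.01 FPKM and risperidone libraries 13.2, 17.6, 13.7 and 12.8 FPKM, all above every saline library. Haloperidol gave 0.68 ± 0.10 (1.67-fold; adjusted p = 0.00346; 0.162% of genes called and 1 of 35 members), and 0.62 ± 0.12 against set I alone, which did not pass (adjusted p = 0.0528). Risperidone gave 0.71 ± 0.10 (1.71-fold; adjusted p = 0.000342; 0.51% of genes called and 1 of 35 members) and 0.65 ± 0.12 against set I alone (adjusted p = 0.0104). The risperidone call held without replicate 3, the library that stood apart.

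Ketamine libraries of the PFCx read 17.99, 14.04, 12.7 and 11.7 FPKM, and mianserin libraries 13.6, 11.1, 11.0 and 10.2 FPKM. Each lay above every saline library of the tissue. For ketamine the difference was 0.68 ± 0.10 (1.68-fold; adjusted p = 0.0064) and Slc2a1 was the 1 member called beside 0.0162% of all genes; against set II alone it was 0.73 ± 0.12 (adjusted p = 0.00183). Without ketamine replicate 1, the highest of the 4, the value was 0.56 and did not pass (adjusted p = 0.0745). Mianserin gave 0.41 ± 0.10 (1.37-fold; adjusted p = 0.0554), and 0.46 ± 0.12 against set II alone, which passed (adjusted p = 0.035).

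Methamphetamine libraries of the PFCx read 13.0, 10.8, 11.2 and 11.7 FPKM, above every saline library, with 0.44 ± 0.10 against all saline (adjusted p = 0.0506) and 0.39 ± 0.12 against set I (adjusted p = 0.364). Venlafaxine libraries read 9.89, 8.48, 8.99 and 9.15 FPKM and overlapped saline (0.12 ± 0.10, adjusted p = 0.866). Over the 12 comparisons, Slc2a1 was above the saline mean of its own sample set in 12. A difference between the NAc and PFCx responses was not found for Slc2a1 or any other member: 0 of 210 member and drug combinations passed the limma interaction test (called genes: 0.0405% for haloperidol, 0% for risperidone and methamphetamine, 0.119% for mianserin, 0.0513% for venlafaxine and 0.313% for ketamine), 23 had an unadjusted p under 0.05 (8.08% to 17.9% of all genes, by drug), and the lowest adjusted p was 0.0986, for Slco1a4 after ketamine.

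**Figure D3:**
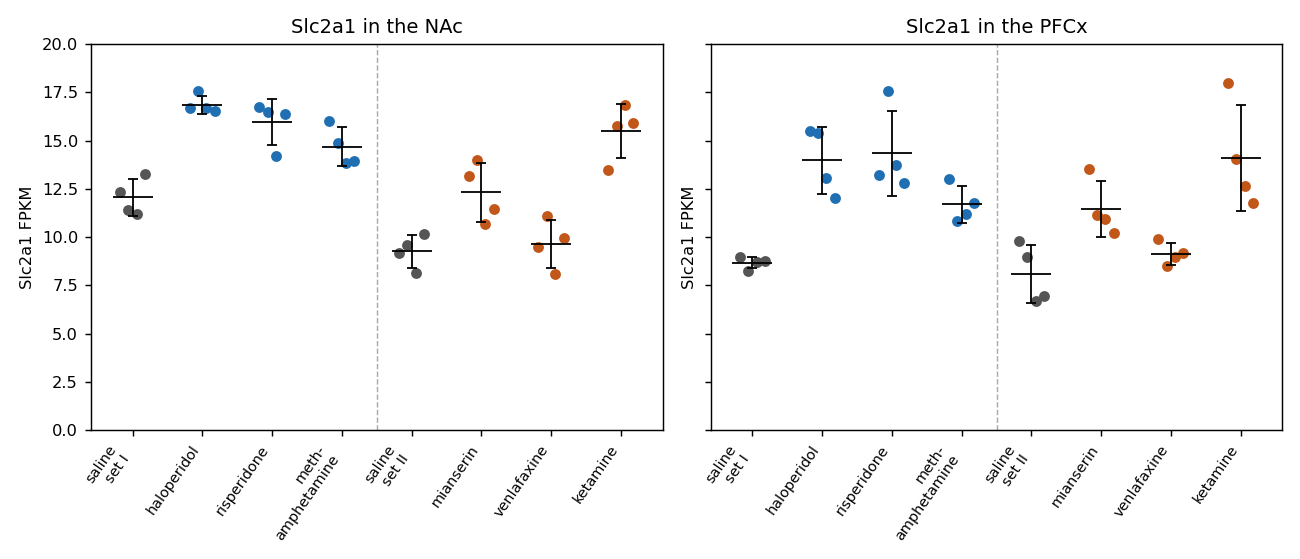
Slc2a1 expression in FPKM (vertical axis, from 0) in each of the 64 libraries, by treatment, for the NAc and the PFCx. Points are libraries, horizontal lines group means and bars 1 SD; grey is saline, blue the drugs of sample set I and orange those of set II, with a dashed line between the sets. In both tissues the haloperidol, risperidone, methamphetamine and ketamine libraries all lie above the saline libraries, and the venlafaxine libraries overlap them.

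The tables list 4 transcripts of Slc2a1. Slc2a1-201, a coding transcript of 3260 bases, had 37.2% of the gene's FPKM in PFCx saline, and Slc2a1-204, annotated as a target of nonsense-mediated decay, had 49.6%. Reads are shared between them, so their division is an estimate. The coding transcript rose in the NAc after haloperidol (0.57 ± 0.11, adjusted p = 0.0163), risperidone (0.53 ± 0.11, adjusted p = 0.0354), methamphetamine (0.56 ± 0.11, adjusted p = 0.0489) and ketamine (0.67 ± 0.11, adjusted p = 0.00412), where 0.188%, 0.16%, 0.051% and 0.2% of all transcripts were called. In the PFCx it rose after haloperidol (0.72 ± 0.13, adjusted p = 0.039; 0.0232% of transcripts) and risperidone (0.66 ± 0.13, adjusted p = 0.0213; 0.158% of transcripts). Of these 6 rises, that after ketamine in the NAc also passed against saline set II (adjusted p = 0.00134). Slc2a1-204 rose after risperidone in the PFCx (0.63 ± 0.13, adjusted p = 0.0487) and was higher in the NAc than in the PFCx after saline (0.38 ± 0.10, adjusted p = 0.0193; 13.7% of transcripts).

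Of the 167 transcripts of the members, 140 were tested, and 24 calls were made over all comparisons, 12 between tissues (13.7% of all transcripts) and 12 after drugs. Flt1-203, a coding transcript with 31.2% of the gene's FPKM in NAc saline, fell in the NAc by 0.29 ± 0.05 after haloperidol (adjusted p = 0.00657) and by 0.26 ± 0.05 after risperidone (adjusted p = 0.0247), while Flt1 summed over its transcripts was not called. Pecam1-205, with 30.7%, fell by 0.70 ± 0.14 after mianserin in the NAc (adjusted p = 0.0192; 0.504% of transcripts). Slco1a4-204, an intron-retaining transcript with 15.7% in PFCx saline, fell by 0.42 ± 0.09 after mianserin in the PFCx (adjusted p = 0.0335; 0.351% of transcripts), and this call also passed against saline set II (adjusted p = 0.0498). The falls of Flt1-203 and Pecam1-205 did not pass against the saline of their own sets (adjusted p from 0.0737 to 0.225).

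Eng (chr2:32646595-32682669, plus strand) codes for endoglin, an endothelial co-receptor for the transforming growth factor β family. Its NAc ketamine libraries read 4.10, 2.67, 3.30 and 3.03 FPKM, against 2.07, 2.17, 2.18 and 2.06 FPKM in saline set I and 1.95, 2.60, 1.70 and 1.70 FPKM in set II. All 4 lay above the highest saline library. The rise was 0.48 ± 0.10 (1.59-fold; adjusted p = 0.0141) against all saline and 0.52 ± 0.12 (adjusted p = 0.0212) against set II, and it did not pass without ketamine replicate 1 (adjusted p = 0.0532). After haloperidol in the NAc, Eng read 2.43, 2.49, 3.19 and 2.65 FPKM. These values lay above all of set I but overlapped set II, without a call, so higher values were not particular to ketamine.

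Mfsd2a (chr4:122946850-122961188, minus strand) codes for the endothelial transporter of lysophosphatidylcholine lipids that also restrains vesicle traffic across the barrier. Its NAc ketamine libraries read 3.09, 3.94, 2.70 and 2.79 FPKM, against 1.56, 1.86, 1.60 and 1.71 FPKM in saline set II and 1.82, 2.69, 1.69 and 3.02 FPKM in set I. They lay above all of set II but overlapped set I. Mfsd2a passed against set II alone (0.61 ± 0.14, adjusted p = 0.0289), where 0.967% of genes were called, and not against all saline (0.47 ± 0.13, adjusted p = 0.0533). Over the 12 comparisons it was above saline in 10, and above the saline of the drug's own sample set in 11, with no other call. Its NAc methamphetamine libraries read 4.18, 2.455, 3.97 and 2.46 FPKM, so higher values were not particular to ketamine.

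Some marker genes of other cell types were called after ketamine in the NAc, where 1.97% of all genes were called. Mobp, a myelin gene of oligodendrocytes, was called higher, at 89.8 ± 5.30 FPKM against 73.4 ± 6.67 FPKM in saline (0.29 ± 0.07, adjusted p = 0.024). The 7 oligodendrocyte markers summed to 737 to 812 FPKM after ketamine, overlapping the 583 to 799 FPKM of the saline libraries. Of 7 astrocyte markers Gjb6 was called higher. Sums of the astrocyte markers, 175 to 206 FPKM after ketamine, overlapped both saline sets (178 to 198 FPKM in set I and 150 to 177 FPKM in set II). Their part in the rises of Slc2a1, Eng and Mfsd2a was not tested.

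Esam (chr9:37528078-37538319, plus strand) codes for an adhesion protein of endothelial tight junctions. Its PFCx mianserin libraries read 4.73, 3.61, 4.82 and 3.98 FPKM, against 2.67, 2.76, 1.86 and 3.51 FPKM in saline set I and 3.16, 2.48, 2.68 and 2.84 FPKM in set II. All 4 lay above the saline libraries, by 0.50 ± 0.10 (1.56-fold; adjusted p = 0.0107) and by 0.48 ± 0.12 against set II (adjusted p = 0.0293). The call did not hold without mianserin replicate 1 or replicate 3 (highest adjusted p = 0.0777). Mianserin called 2 of 35 members in the PFCx beside 0.667% of all genes.

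The other was Slc16a1 (chr3:104638668-104658462, plus strand), the lactate and ketone body transporter MCT1, which endothelium and oligodendrocytes express. Its mianserin libraries read 3.38, 3.21, 3.30 and 3.14 FPKM, above the 2.46, 2.42, 2.41 and 2.17 FPKM of saline set I and the 2.59, 3.00, 2.67 and 2.54 FPKM of set II. The rise of 0.27 ± 0.06 (1.28-fold; adjusted p = 0.0357) was 0.20 ± 0.07 and did not pass against set II (adjusted p = 0.144), and it was lost when any of 9 of the 12 libraries was left out, PFCx saline set II replicate 4 among them (adjusted p up to 0.133).

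Markers of other cell types differed after mianserin in the PFCx as well. All 10 fibroblast markers were below their saline mean and none was called, with sums of 7.598 to 10.4 FPKM, under every saline library. The 5 red blood cell markers summed to 31.5 to 45.9 FPKM, overlapping saline set II and below set I, and none was called. Of the oligodendrocyte genes, Mobp had 22.7 ± 1.74 FPKM against 17.99 ± 3.13 FPKM in saline (0.33 ± 0.16, adjusted p = 0.511), and Cldn11, a claudin of myelin, passed against set II alone (6.40 ± 0.80 against 3.97 ± 0.85 FPKM, adjusted p = 0.0457). Their part in the rises of Slc2a1, Esam and Slc16a1 was not tested.

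In the NAc, mianserin gave 0 calls among the members by limma (1.84% of all genes called), with 11 of 35 at an unadjusted p under 0.05 beside 21.3% of all genes. The 2 members with the lowest p were Rgs5, with 8.90, 8.24, 8.67 and 7.27 FPKM against a saline mean of 6.96 ± 0.77 FPKM (0.22 ± 0.06, adjusted p = 0.0584), and Esam, with 3.45, 3.67, 3.92 and 5.16 FPKM against 3.11 ± 0.19 FPKM (0.29 ± 0.09, adjusted p = 0.0764). All 4 Esam libraries and 3 of the 4 Rgs5 libraries were above the highest saline library.

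**Figure D4:**
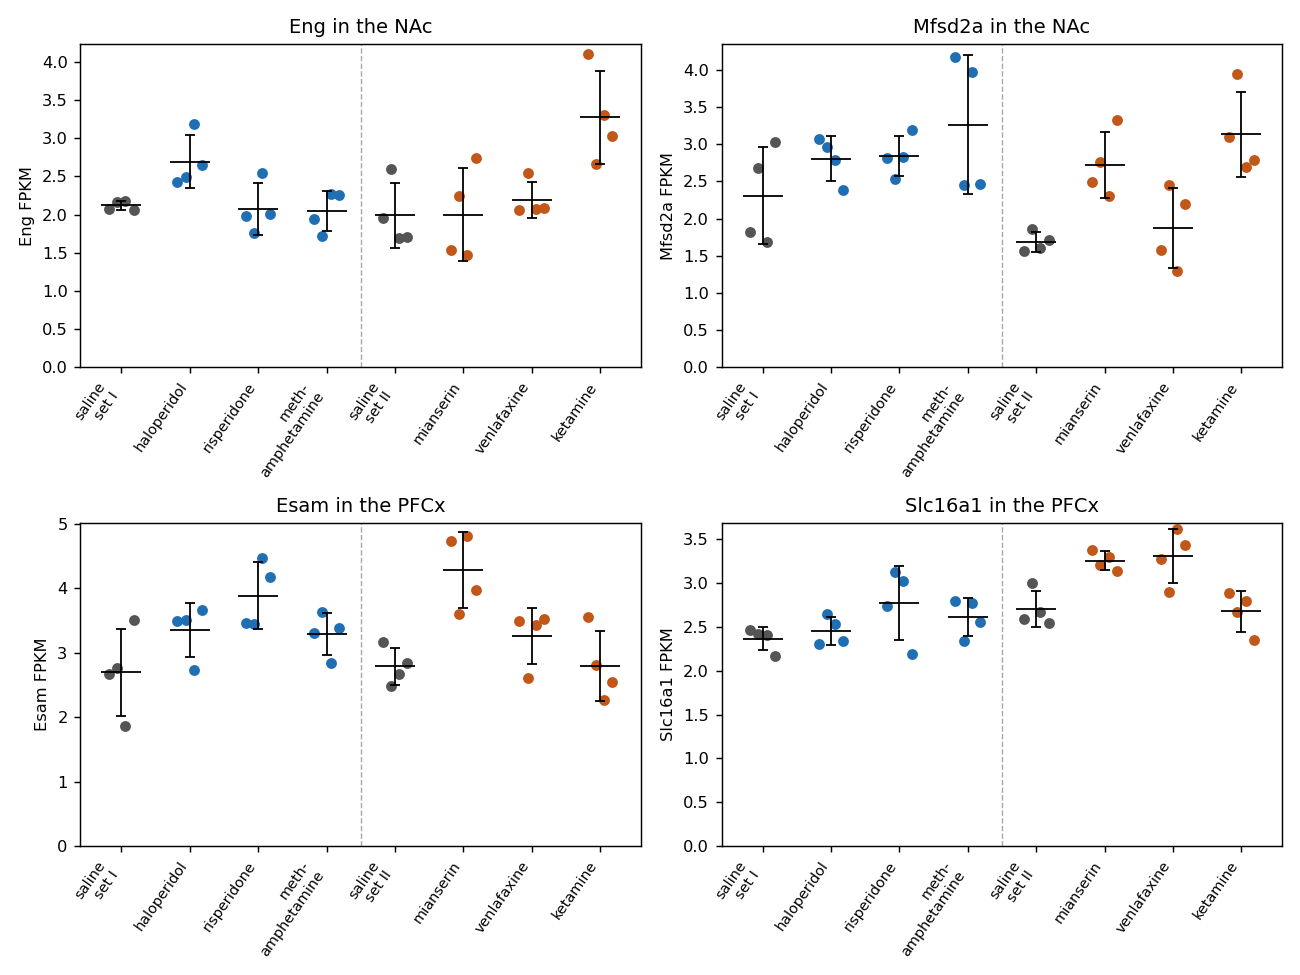
Expression in FPKM (vertical axes, from 0) of Eng and Mfsd2a in the NAc and of Esam and Slc16a1 in the PFCx, by treatment. Points are libraries, lines means and bars 1 SD, coloured as saline, sample set I drugs and sample set II drugs; the 4 ketamine libraries of Eng and the 4 mianserin libraries of Esam and Slc16a1 lie above all saline libraries of their tissue.

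Members that fell were fewer. Slco1a4 in the NAc read 4.39, 3.74, 4.62 and 4.29 FPKM after risperidone, against 4.64, 5.50, 5.77 and 6.30 FPKM in saline set I and 6.29, 6.86, 5.64 and 5.32 FPKM in set II. All 4 lay below the lowest saline library, though replicate 3 only by a small margin. The difference of -0.36 ± 0.08 (0.736-fold; adjusted p = 0.019) was -0.31 ± 0.09 and did not pass against set I (adjusted p = 0.203), nor against all saline without risperidone replicate 1, 2 or 4.

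Bsg in the NAc read 40.8, 55.8, 28.4 and 47.7 FPKM after venlafaxine, 50.8, 50.5, 50.9 and 51.2 FPKM in saline set II and 71.0, 71.6, 87.1 and 83.3 FPKM in set I. The venlafaxine libraries overlapped set II. The call against all saline (-0.58 ± 0.15, adjusted p = 0.0499) was the 1 member call for this drug in the NAc, beside 1.83% of all genes, and it was -0.27 ± 0.14 against set II (adjusted p = 0.886). It held under 2 of 7 other analysis settings.

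Cldn5 (chr16:18776847-18778262, plus strand) was below the saline mean in 11 of 12 comparisons and was called in none. After risperidone in the NAc it read 4.52, 3.71, 4.03 and 4.22 FPKM, below all 8 saline libraries (4.76 over 5.99 to 6.93 FPKM; -0.45 ± 0.12, adjusted p = 0.0832). After haloperidol in the PFCx it read 3.67, 3.86, 2.66 and 4.57 FPKM, below all set I saline libraries but overlapping set II (-0.45 ± 0.13, adjusted p = 0.146). Tested over all 6 drugs at once, Cldn5 passed in the NAc (limma F test, adjusted p = 0.0319) and not with each drug set against its own saline (adjusted p = 0.296).

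In the PFCx, venlafaxine and methamphetamine gave 0 member calls by limma, where 0.0054% and 0.351% of all genes were called. At an unadjusted p under 0.05 there were 4 and 5 members, beside 7.16% and 8.88% of all genes. The members with the lowest p after venlafaxine were Slc16a1 (3.28, 2.90, 3.62 and 3.43 FPKM, 0.28 ± 0.06, adjusted p = 0.149) and Cdh5, the endothelial cadherin (1.48, 1.23, 1.52 and 0.993 FPKM against 1.015 ± 0.14 FPKM, 0.19 ± 0.07, adjusted p = 0.527). After methamphetamine they were Slc2a1 and Eng (2.26, 2.05, 3.51 and 2.64 FPKM against 1.77 ± 0.45 FPKM, 0.39 ± 0.12, adjusted p = 0.234).

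Tested for any drug effect, 13 of 35 members passed in the NAc, beside 36.9% of all genes, and 4 of 35 in the PFCx, beside 3.34% (5 without saline set II replicate 4, beside 3.85%). With each drug set against the saline of its own sample set, the numbers were 2 in the NAc (Eng and Slc2a1, 1.63% of genes) and 2 in the PFCx (Esam and Slc2a1, 1.45% of genes). Slc2a1 had an adjusted p of 8.92e-06 for the NAc and 0.000315 for the PFCx by this test.

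The mean of log2(FPKM + 1) over the 35 members summarised the group in each library. It was 1.86 ± 0.04 in NAc saline and 1.92 ± 0.09 in PFCx saline (SD, n = 8), with 1.99 and 2.04 for the endothelial members and 1.42 ± 0.08 and 1.55 ± 0.12 for the mural members. After drugs it differed from saline by between -0.06 and 0.11, the saline range was overlapped in 12 of 12 comparisons, and 40 of 48 drug libraries lay within it. The lowest and highest NAc libraries were venlafaxine replicate 3 (1.77, with 13 of 35 members above the tissue median) and mianserin replicate 4 (1.95, with 23). In the PFCx they were saline set II replicate 4 (1.80, with 9) and risperidone replicate 3 (2.10, with 28).

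**Figure D5:**
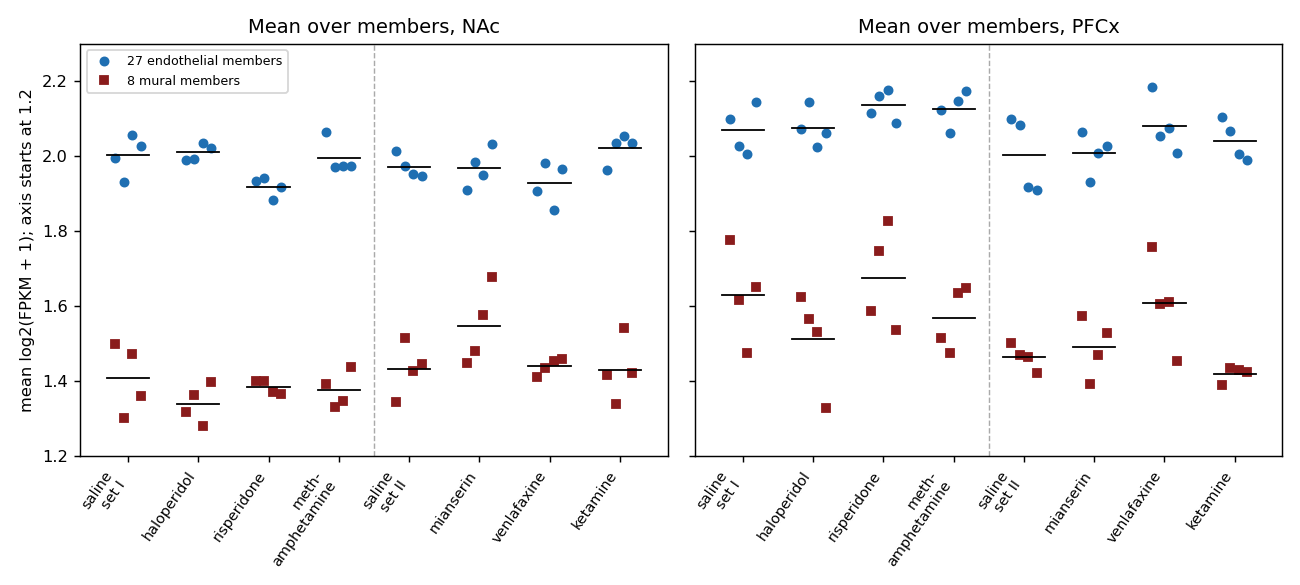
Mean of log2(FPKM + 1) over the 27 endothelial and the 8 mural members in each library (vertical axis, which starts at 1.2), by treatment and tissue. Blue circles (endothelial) and red squares (mural) are libraries, horizontal lines group means, and the dashed line divides the sample sets; in each of the 12 drug comparisons the drug libraries overlap the range of the saline libraries for both groups of members.

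The saline sets themselves differed for some members, which bears on every drug comparison. In the NAc 5 members differed between set I and set II (24.7% of all genes). Bsg had 78.2 ± 8.20 against 50.9 ± 0.263 FPKM (0.61 ± 0.14, adjusted p = 0.00264), Slc2a1 12.1 ± 0.964 against 9.26 ± 0.858 FPKM (0.35 ± 0.09, adjusted p = 0.00466) and Egfl7 10.4 ± 1.64 against 7.38 ± 0.879 FPKM (0.44 ± 0.13, adjusted p = 0.0189). Vtn was higher in set I as well (10.7 ± 1.00 against 7.85 ± 1.61 FPKM, adjusted p = 0.0381) and Abcc9, a potassium channel subunit of pericytes, lower (0.522 ± 0.035 against 0.780 ± 0.121 FPKM, adjusted p = 0.0299). The calls of Vtn and Abcc9 were each lost when any of 6 of the 8 libraries was left out (adjusted p up to 0.142 and 0.0786), and that of Egfl7 without set I replicate 4 or set II replicate 1 (up to 0.0811), so that 2 to 4 calls were left. Vtn also did not pass after rescaling to the 75th percentile or with a mean of at least 1 FPKM (adjusted p up to 0.0581).

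In the PFCx Bsg (77.5 ± 5.88 against 52.5 ± 16.4 FPKM, adjusted p = 0.0104) and Vtn (9.17 ± 1.24 against 6.55 ± 1.48 FPKM, adjusted p = 0.00871) were higher in set I, beside 9.2% of all genes. Neither passed without saline set II replicate 4 (adjusted p = 0.0752 and 0.0512). Red blood cell markers summed to 74.1 to 101.7 FPKM in NAc saline set I and 40.2 to 71.1 FPKM in set II, and to 88.9 to 127.0 FPKM against 38.2 to 58.3 FPKM in the PFCx. Their part in these differences was not tested, and the sample set and any difference in the mice or their handling cannot be told apart.

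Other genes of the vessel wall gave few calls after drugs, apart from a list of 15 genes known for rapid responses of endothelium. After mianserin, 4 of them rose in the NAc (1.84% of all genes called), 3 rose in the PFCx (0.667%), and none fell. Cyr61, a matrix protein induced quickly by growth factors and mechanical stress, ran from 0.302 to 0.799 FPKM in NAc saline and read 1.38, 1.72, 1.71 and 1.25 FPKM after mianserin (0.76 ± 0.09, adjusted p = 2.65e-05). In the PFCx it ran from 0.199 to 0.595 FPKM in saline and read 2.29, 1.41, 1.76 and 1.72 FPKM after mianserin (1.03 ± 0.09, 4.86-fold, adjusted p = 3.16e-08). No mianserin library overlapped saline in either tissue, and both calls held against set II (adjusted p = 3.55e-05 and 7.6e-07).

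Apold1, an endothelial early response gene, read 0.983, 0.987, 1.26 and 0.963 FPKM after mianserin in the NAc, where saline reached 0.542 FPKM (0.56 ± 0.06, 2.71-fold, adjusted p = 1.07e-05). In the PFCx it read 1.21, 0.985, 1.24 and 1.10 FPKM, where saline reached 0.766 FPKM (0.52 ± 0.07, 2.32-fold, adjusted p = 1.83e-05). Adamts1, a secreted protease, rose too, by 0.48 ± 0.09 in the NAc (2.04-fold, adjusted p = 0.00395) and 0.49 ± 0.09 in the PFCx (1.83-fold, adjusted p = 0.00397). Against set II the calls of Apold1 held in both tissues and that of Adamts1 held in the PFCx (adjusted p = 0.0011) but not in the NAc (adjusted p = 0.0588). The median difference over the list was 0.11 for the NAc (all genes 0.04) and 0.15 for the PFCx (all genes -0.03). These genes are not made by endothelium alone, so the cells in which they rose were not resolved.

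The same list had 3 of 15 genes higher after methamphetamine in the PFCx (Adamts1, Klf2 and Cyr61, beside 0.351% of all genes called) and 2 after risperidone in each tissue (Cyr61 and Pdk4 in the NAc, beside 0.729%, and Angptl4 and Apold1 in the PFCx, beside 0.51%). Of those, Adamts1 after methamphetamine passed against saline set I (0.59 ± 0.09, adjusted p = 0.00071 against all saline and 0.0259 against set I). Of 29 other endothelial genes tested, Rassf9 fell after haloperidol and risperidone and Tfrc (the transferrin receptor) rose after ketamine in the NAc, and Ets1 fell after mianserin in the PFCx. None of these 4 calls passed against the drug's own saline set. Of 16 other mural genes Tbx18 rose after venlafaxine in the NAc, and of 14 vascular ligands Wnt7b and Vegfa rose after haloperidol in the NAc, with none passing against its own saline set. Of all genes, 0.721% were called after haloperidol, 0.729% after risperidone, 1.83% after venlafaxine and 1.97% after ketamine in the NAc, and 0.667% after mianserin in the PFCx.

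Between tissues, 9 of the 29 other endothelial genes were lower in the NAc and none higher, with a median of -0.13, beside 26.8% of all genes lower, 7.16% higher and a median of -0.10. Slc39a10 (12.6 against 34.5 FPKM, -1.38), Cd34 (2.78 against 9.66 FPKM, -1.49) and Ablim1 (9.41 against 17.8 FPKM, -0.85) had the lowest p. In the PFCx, Slc39a10 and Ablim1 stood above every member but Bsg, the next being Egfl7 at 10.4 FPKM. The cells in which these genes differed were not resolved in bulk tissue. Of the 16 other mural genes 3 were higher (Notch3, 0.36, and Mcam, 0.67, had the lowest p) and 3 lower (among them Des, -0.36). Of the 14 vascular ligands 2 were higher and 6 lower, with Wnt7a (0.97) and Wnt7b (-0.87), ligands that drive barrier formation, on opposite sides. The same shares of all genes apply to both lists.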

How the data were processed

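RNA was read on an Ion Torrent instrument as single-end reads of total RNA after ribosomal depletion. Per the labels and the study's methods, the authors aligned reads to mm10 with TopHat2 (version 2.0.1) and quantified transcripts with Cufflinks (version 2.2.1, both versions from the submitters' processing notes), with 1 table for each of the 64 libraries. The deposited values are FPKM per transcript, normalized by the authors, beside a column of per-base coverage. No counts were given, so no counting intervals were possible, and depth was estimated from the deposited coverage times transcript length (1.52 to 3.26 gigabases per library). Reads shared between transcripts, or between near-identical genes such as Ly6c1 and Ly6c2 or Abcb1a and Abcb1b, are divided by estimate.

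FPKM values were summed per Ensembl gene identifier, and genes were named by symbol. The 35 members, the 20 gene lists and the tests were chosen with earlier results of these data known. Genes with a mean of at least 0.1 FPKM in either tissue were tested on log2(FPKM + 1) with limma 3.58.1 in R 4.3.3, with Benjamini-Hochberg adjustment over all genes tested and a threshold of 0.05. Differences on this scale understate changes of low genes. Drugs were compared with the 8 saline libraries of the tissue, all 32 libraries of the tissue sharing 1 estimate of spread, and with the 4 saline libraries of their own sample set. Libraries were grouped by the labels; groups have 4 libraries per drug, or 8 for saline. Python 3.11.15 did the rest. The fit was tested on simulated data first.

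Named genes were, for the tissues, up to 12 called members with the largest difference; for each drug and tissue up to 6 called members with the lowest adjusted p, or the 2 with the lowest p where none was called; for the saline sets up to 6; and of each other list up to 3 called genes with the lowest adjusted p. Mfsd2a, Cldn5 after drugs and the ACGTG motif were added after their values were seen. Settings varied were the pseudocount (0.1), the filter (none, or a mean of at least 1 FPKM), rescaling to the 75th percentile, the replicate number as a block, transcripts seen in both sample sets, the saline set used, and each library left out. Gene spans are from GENCODE vM21, promoters from RefSeq (GRCm38.p6); 23 of 35 members had a promoter entry. Of 137 genes in the other lists, 135 were in the tables; the remaining ones were not analysed here. Columns of other samples numbered 0. A result for another marker gene is not reported here.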

Additional observations from a re-analysis of the deposited data

Results flagged for a closer look

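Slc2a1, the glucose transporter gene, had a library apart from the other 3 in each of 2 groups of 4 NAc libraries. Haloperidol replicate 2 was the highest at 17.56 FPKM, the others lying between 16.5 and 16.7 FPKM. Risperidone replicate 3 was the lowest at 14.21 FPKM, the others lying between 16.4 and 16.8 FPKM. Both libraries still lay above all 8 saline libraries of the tissue, and the calls of Slc2a1 for both drugs held without them. Of 33 groups checked 2 stood out in this way, and chance gives about 5% of groups, or 1 in 20.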

How the results depend on the processing

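No called member changed direction under any setting tried. Members called between tissues numbered 11 (33.9% of all genes), and 6 with saline set II alone (20.8%). Against the saline of its own sample set, risperidone in the NAc called 0 (2 before), venlafaxine and methamphetamine in the NAc and haloperidol in the PFCx 0 each (1 before), and the test of any drug 2 in each tissue (13 in the NAc and 4 in the PFCx before). In the same order, these tests called 0.213%, 0.0081%, 0.0891%, 0.0216%, 1.63% (NAc) and 1.45% (PFCx) of all genes. Venlafaxine in the NAc also called 0 with a pseudocount of 0.1, a mean of at least 1 FPKM, the replicate block or transcripts of both sample sets, and methamphetamine in the NAc 0 with a pseudocount of 0.1. Mianserin in the NAc called 1 without a filter and 2 after 75th percentile rescaling (0 before), and in the PFCx 1 with a pseudocount of 0.1 (2 before). For mianserin in the NAc, 2.26% of all genes were called after rescaling, beside 1.84% before. Methamphetamine in the PFCx called 1 with a mean of at least 1 FPKM, rescaling, the replicate block or transcripts of both sample sets (0 before). Of all genes, 0.341% were called there after rescaling and 0.375% with the block, beside 0.351% before. With a mean of at least 1 FPKM, risperidone in the PFCx called 2 (1 before), the NAc saline sets 3 (5 before) and transcripts of members 15 (24 before). Transcript calls after drugs were 5 against the own saline set (12 before), and between tissues 5 in set I and 3 in set II (12 before). Shares of all genes or transcripts under the remaining settings are not given, so those counts do not separate the members from genes in general. The tissue difference of the member mean was -0.07, and -0.13 with a pseudocount of 0.1.

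With 1 library left out, members called ranged from 10 to 13 between tissues and from 44 to 49 over the 6 drug groups. In the NAc they ranged from 1 to 1 (haloperidol), 1 to 3 (risperidone), 0 to 2 (mianserin), 0 to 1 (venlafaxine), 0 to 2 (methamphetamine), 1 to 3 (ketamine), 11 to 14 (any drug) and 2 to 4 (saline sets). In the PFCx they ranged from 1 to 1, 1 to 3, 0 to 3, 0 to 0, 0 to 1, 0 to 1, 2 to 5 and 0 to 2 in the same order. The interaction gave 0 to 0 and transcripts 17 to 24. No share of all genes stands beside these ranges, so they describe the members only.

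Replicate numbers were not taken as pairs. Between tissues, none of the 8 same-numbered saline pairs correlated above 0.1. Of drug pairs, 8 of 24 same-numbered and 13 of 72 different-numbered ones did. Within a sample set, 40 of 48 same-numbered pairs in the NAc and 36 of 48 in the PFCx did. Of different-numbered pairs there, 20 of 144 in the NAc and 39 of 144 in the PFCx did. The main fits had no term for the replicate number. With the replicate number as a block, 18 of 20 counts stayed within 1.5 times. The tissue difference called 12 (30.2% of all genes), and mianserin in the PFCx 3 (0.702%, and 2 without the block). In the drug fits this block joined libraries of the same number over both sample sets. It therefore did not model the correlation within a set, and its counts cannot tell what that correlation does to the calls. Depth limits the low members most: a library held a median of 0.643 aligned kilobases of Anpep and 1.26 of Sox18, beside 151.9 of Bsg, and small differences of such genes were not detectable.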
